A study of Mus musculus with 8 samples.

Results

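The levels of 7 retinal long noncoding RNAs were measured in whole retina of rd10 and wild-type (WT) mice: Rncr4, B230220B15Rik, Miat, Tug1, Six3os1, Neat1 and Malat1. They were found as the rows of the raw count table whose mouse Ensembl identifier carries one of these symbols, which gave 7 genes of 57010 identifiers, 29411 of them with at least 1 count. All 7 passed the filter on low counts. Rncr4 and B230220B15Rik had been chosen because they were lower than WT in every rd10 group of these same libraries, so their values against WT are given as a description, with no test. The 8 libraries form 4 groups of 2: WT retina at postnatal day 15 (P15), and rd10 retina at P15, P18 and P21, with 1 whole retina in each library and polyadenylated RNA selected before sequencing. The rd10 mice were homozygous for the rd10 allele, a missense mutation of the rod phosphodiesterase gene Pde6b that is present in every cell of the animal, and the WT mice were littermates. No WT library was taken at P18 or P21, so that against WT the age and the genotype change together in those groups and cannot be told apart. All 3 comparisons with WT share the same 2 control libraries.

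Long noncoding RNAs are transcripts without a long open reading frame that act, where a function is known, as RNA: as scaffolds of nuclear bodies, as partners of splicing factors and chromatin regulators, or through the act of transcription beside another gene. In the retina, Rncr4 is transcribed beside and opposite to the microRNA cluster of miR-183, miR-96 and miR-182, which is abundant in photoreceptors and accumulates as these mature. Six3os1 is transcribed opposite to Six3, a homeobox regulator of eye development. Tug1 was first found as a taurine-regulated RNA of developing rods. Miat, also called Gomafu or Rncr2, stays in the nucleus and binds splicing factors through repeats of the branch point letters TACTAAC. Neat1 is the scaffold of paraspeckles and Malat1 accumulates in nuclear speckles, the bodies that store splicing factors. The function of B230220B15Rik is not stated here.

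Positions were taken from GENCODE M21 on GRCm38. Rncr4 (ENSMUSG00000103108) is a single exon of 2234 bases at chr6:30172893-30175126 on the plus strand. B230220B15Rik (ENSMUSG00000114627) spans chr13:107996285-108004669 on the plus strand, and its longest transcript has 2 exons and 2511 bases. Miat (ENSMUSG00000097767) lies at chr5:112213228-112229395, Tug1 (ENSMUSG00000056579) at chr11:3639785-3649673 and Six3os1 (ENSMUSG00000093460) at chr17:85600651-85618398, all on the minus strand. Neat1 (ENSMUSG00000092274, chr19:5824708-5845478, 20771 bases) and Malat1 (ENSMUSG00000092341, chr19:5795690-5802672, 6983 bases) are unspliced neighbours on the minus strand of chromosome 19. RefSeq names Rncr4 BB283400 and places it at chr6:30176623-30178046, 1497 bases beyond the end of the GENCODE model and without a shared base. The count below carries the Ensembl identifier, and the exons used in counting are not known.

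The hairpin nearest to Rncr4 is Mir183, 3156 bases away on the opposite strand. The mature 5p sequences of the 3 neighbouring microRNAs are shown because they are the known products of this locus, from RefSeq on GRCm38, with the seed (bases 2 to 8) in capitals.
miR-182-5p: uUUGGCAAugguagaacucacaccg
miR-96-5p: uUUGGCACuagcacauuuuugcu
miR-183-5p: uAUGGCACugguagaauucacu
No pair of the 3 shares a whole seed. The microRNAs themselves were not measured, since short unpolyadenylated RNA is not captured by this library type, and the Mir183 hairpin had at most 6 counts in any library.

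The first 200 bases of the longest GENCODE M21 transcripts of the pair chosen for low levels in rd10 retina are shown, 5′ to 3′. The annotation used in counting is not known, so the counted exons may differ from these models.
Rncr4: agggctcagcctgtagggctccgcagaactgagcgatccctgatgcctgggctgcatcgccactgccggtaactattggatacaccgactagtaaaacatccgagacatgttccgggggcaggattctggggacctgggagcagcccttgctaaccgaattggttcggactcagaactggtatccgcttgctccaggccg
B230220B15Rik: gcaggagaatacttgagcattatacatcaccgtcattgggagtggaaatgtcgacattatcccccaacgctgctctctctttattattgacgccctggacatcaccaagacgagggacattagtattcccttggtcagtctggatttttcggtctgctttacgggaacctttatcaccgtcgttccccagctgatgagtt
G and C made up 65.2% of the Rncr4 transcript and 48.9% of that of B230220B15Rik.

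**Figure D1:**
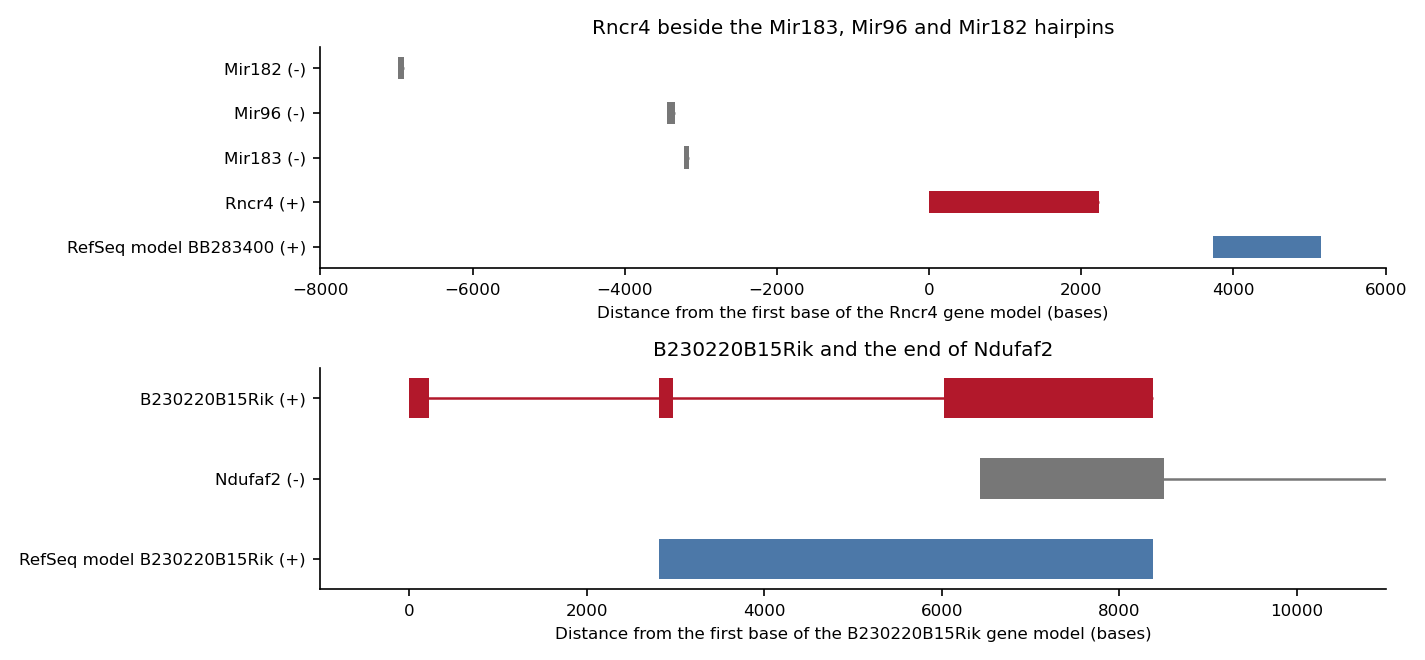
Gene models around Rncr4 (top) and B230220B15Rik (bottom), drawn to scale as distance in bases from the first base of each model. Boxes are exons or hairpins, lines are introns, the strand is in parentheses, and the RefSeq models are in blue. The Mir183, Mir96 and Mir182 hairpins lie before Rncr4, and the last exon of Ndufaf2 overlaps the last exon of B230220B15Rik by 1955 bases.

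The promoter windows of the same pair are shown because both RNAs were low in the same libraries. Each window is from RefSeq on GRCm38 and runs from 250 bases before to 50 bases after the RefSeq start, with matches on either strand to TAATCC, the letters bound by the photoreceptor factors CRX and OTX2, or TGCTGA, the core of the rod factor NRL's site, in capitals. Windows were matched for 6 of the 7 members. The letters searched were picked during this work and do not overlap each other.
Rncr4 (as BB283400), chr6:30176373-30176672, plus strand: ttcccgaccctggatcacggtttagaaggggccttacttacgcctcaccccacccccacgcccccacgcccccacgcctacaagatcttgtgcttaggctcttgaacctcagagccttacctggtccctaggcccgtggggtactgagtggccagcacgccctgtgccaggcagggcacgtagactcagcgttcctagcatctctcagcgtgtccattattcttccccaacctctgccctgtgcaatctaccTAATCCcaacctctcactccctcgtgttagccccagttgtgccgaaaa
B230220B15Rik, chr13:107998851-107999150, plus strand: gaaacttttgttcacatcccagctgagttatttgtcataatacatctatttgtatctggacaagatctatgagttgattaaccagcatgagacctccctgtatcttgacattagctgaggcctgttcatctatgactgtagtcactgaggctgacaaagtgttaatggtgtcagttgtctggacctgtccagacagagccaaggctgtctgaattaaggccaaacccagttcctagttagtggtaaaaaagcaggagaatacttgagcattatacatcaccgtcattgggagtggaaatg
The Rncr4 window held 1 TAATCC and no TGCTGA, and the B230220B15Rik window held neither. The TAATCC began 2 bases after the RefSeq start. That start lies 1497 bases beyond the end of the GENCODE Rncr4 model, so the window is not the promoter of that model. Of 32851 promoter windows of this length, 7.06% held TAATCC and 19.5% held TGCTGA. Of the other members, the windows of Tug1, Six3os1 and Malat1 held neither, and that of Miat held 1 TGCTGA.

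Library totals ran from 28076947 to 33724562 counts. Mitochondrial protein genes took 2.91% to 3.71% of the counts, and the 7 members together took between 0.079% and 0.121%. Levels are given as CPM, counts scaled to library size with TMM factors, which compare 1 gene between libraries. Levels of different genes are compared only as RPKM, CPM per kilobase of exon. In rd10 retina the 12 rod genes of the list used here were summed at 22231 to 38047 CPM, against 47356 and 58008 CPM in WT retina. Rod genes were thus expressed in every library, and in bulk tissue fewer cells of a type and less RNA per cell cannot be told apart. Y-linked genes were expressed in 4 libraries: the pair from rd10 P15 and the first replicate of the P18 and P21 groups. Xist was expressed in the other 4, both WT libraries among them, so at P15 the WT and rd10 retinas came from animals of different sex.

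Rncr4 was the most abundant of the 7 per kilobase after Malat1 in WT retina, at 55.6 ± 5.14 RPKM (SD, n = 2 libraries), against 100 RPKM for Malat1 and 13.4 RPKM for B230220B15Rik. By RPKM it was gene 686 of 19860 in WT retina and gene 2302, 3486 and 3379 at P15, P18 and P21 of rd10 retina. Its level was 132 and 116 CPM in the WT libraries. In rd10 retina it was 46.4 and 52.6 CPM at P15, 36.1 and 32.6 CPM at P18, and 29.3 and 38.8 CPM at P21. Every rd10 library lay below both WT libraries, and the rd10 means were 39.8%, 27.7% and 27.4% of the WT mean. This corresponds to log2 fold changes of -1.33, -1.85 and -1.87, which were used in choosing the gene. Of all 20457 genes tested, 7.75% had every rd10 library below both WT libraries.

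Within rd10 retina, a comparison that did not choose the gene, both P18 libraries and both P21 libraries of Rncr4 lay below both P15 libraries. The log2 fold change was -0.53 ± 0.17 (SE) from P15 to P18, with an adjusted p of 0.258 by edgeR's quasi-likelihood test, and -0.54 ± 0.17 from P15 to P21, with an edgeR adjusted p of 0.242. Neither passed the threshold, an adjusted p under 0.05 with a log2 fold change over 1 in size. The libraries of P18 and P21 overlapped, and their difference was -0.01 ± 0.17 (edgeR adjusted p = 0.987).

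B230220B15Rik had the lowest share of its WT level of the 7 RNAs. It was counted at 39.8 and 33.5 CPM in WT retina. The rd10 libraries held 3.66 and 3.70 CPM (P15), 6.83 and 6.49 CPM (P18), and 1.37 and 4.34 CPM (P21). These rest on 1078 and 1036 reads in the WT libraries and on 48 to 229 reads in the rd10 libraries. The rd10 means were 10%, 18.2% and 7.78% of the WT mean, with log2 fold changes of -3.32, -2.46 and -3.69, again as a description. By RPKM it was gene 3998 of 19860 in WT retina and gene 11583 to 14229 in the rd10 groups. Both P18 libraries lay above all other rd10 libraries, with a log2 fold change of 0.86 ± 0.43 from P15 to P18 (edgeR adjusted p = 0.451). From P18 to P21 it was -1.23 ± 0.44 (edgeR adjusted p = 0.44), and from P15 to P21 -0.38 ± 0.44 (edgeR adjusted p = 0.79). The lone P21 library at 1.37 CPM sets the last value, which was 0.24 without it.

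**Figure D2:**
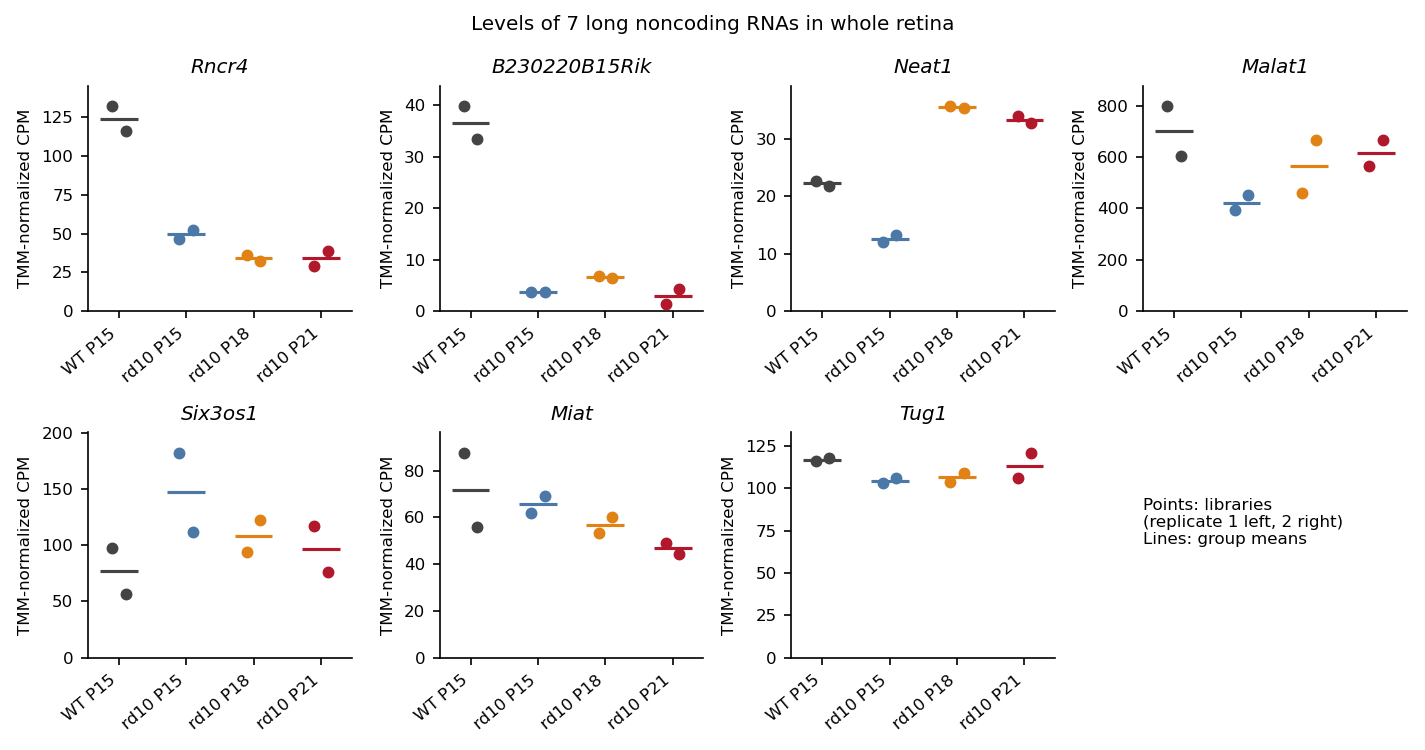
TMM-normalized CPM of the 7 long noncoding RNAs in every library, with a separate axis from 0 for each gene. Points are libraries and lines are the means of 2 libraries. Rncr4 and B230220B15Rik are lower in all 6 rd10 libraries than in both WT libraries, and Neat1 runs from 12 CPM in rd10 P15 to 35.6 CPM in rd10 P18.

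Sequence from the opposite strand could enter the count of B230220B15Rik, since the library preparation does not mark the strand. Its last exon shares 1955 bases with the last exon of Ndufaf2, an assembly factor of mitochondrial complex I. The RPKM of B230220B15Rik rests on 2741 exon bases that include these. How the counting treated reads there is not known, so its RPKM and rank are uncertain. Ndufaf2 was at a mean of 9.46 CPM in WT retina and of 9.81, 9.55 and 4.99 CPM in rd10 retina at P15, P18 and P21. Its level at P15 and P18 was close to that of WT retina, while B230220B15Rik was there at 10% and 18.2% of its own WT level. Both genes had their lowest mean at P21 of rd10 retina.

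The levels of the pair were next set beside those of photoreceptor genes, since rods are lost in rd10 retina. Over the 12 rod genes the median log2 fold change against WT was -0.40 at P15, -0.52 at P18 and -1.05 at P21, beside -0.01, 0.01 and 0.00 over all genes tested. Per 1000 CPM of the rod list, Rncr4 stood at 2.28 and 2.45 CPM in WT retina. In rd10 retina this ratio was 1.30 and 1.38 at P15, 1.13 and 1.06 at P18, and 1.32 and 1.34 at P21. The ratio of Rncr4 to rod transcripts was thus lower in every rd10 library than in WT. For B230220B15Rik it was 0.687 and 0.708 in WT retina and between 0.0616 and 0.213 in rd10 retina. Since the pair was chosen for lying below WT in every rd10 group, these ratios reuse the choosing values and are a description. The 9 cone genes summed to 1518 and 1172 CPM in WT retina, to 694 and 792 CPM at P15, to 976 and 944 CPM at P18, and to 1208 and 1298 CPM at P21 of rd10 retina. Both RNAs were thus lowest or nearly so at P21, where the cone sum overlapped that of WT retina. The part of photoreceptor loss in the levels of the 2 RNAs was not tested.

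**Figure D3:**
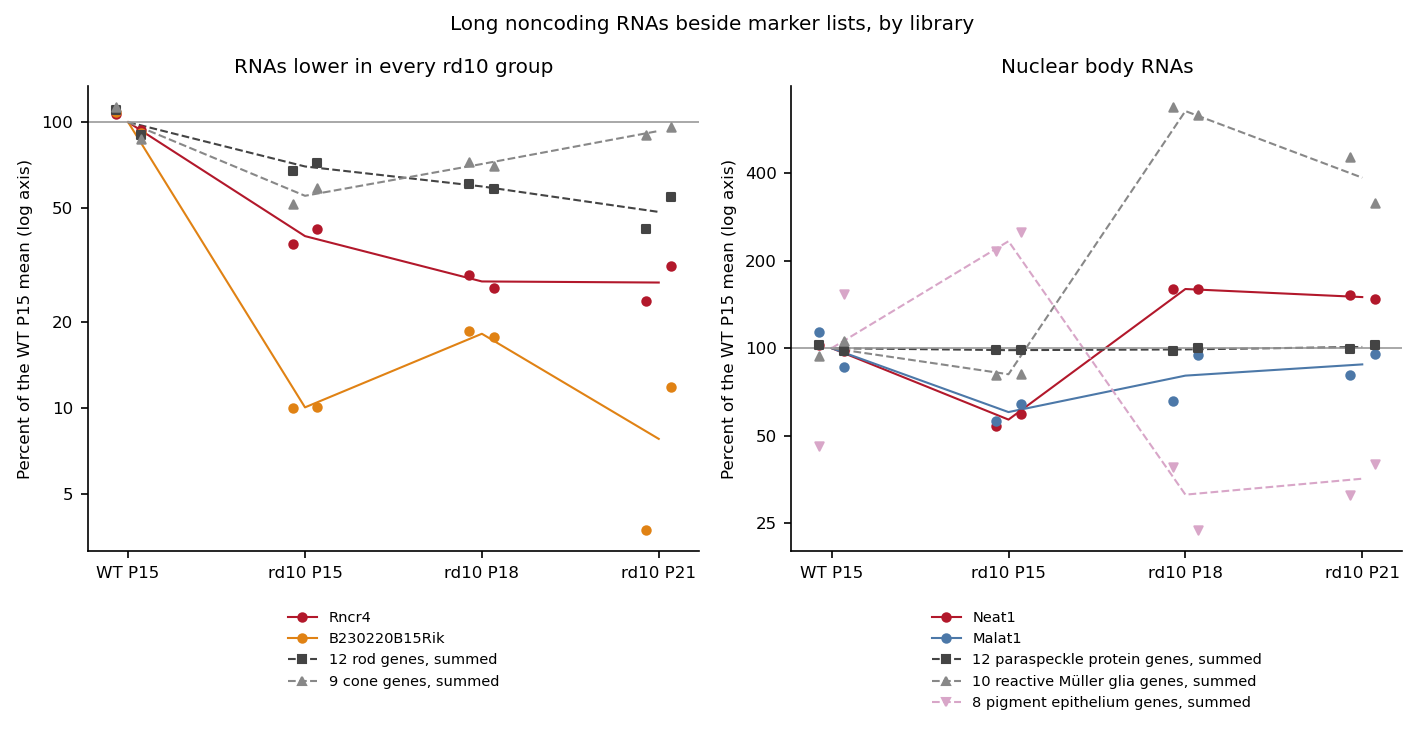
Levels as percent of the WT P15 mean, on a log axis. Points are libraries and lines join group means. Left, Rncr4 and B230220B15Rik beside the summed rod and cone genes: the pair sits below the rod sum in all 6 rd10 libraries. Right, Neat1 and Malat1 beside summed paraspeckle protein, reactive Müller glia and pigment epithelium genes: Neat1 is lowest at rd10 P15 and highest at P18, and the paraspeckle protein sum stays between 1976 and 2069 CPM.

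Sex of the animals was not matched at P15, so the pair was also compared within a sex. Among the libraries with Xist, Rncr4 was at 32.6 to 38.8 CPM in rd10 retina and at 116 to 132 CPM in WT retina, a log2 ratio of -1.80. B230220B15Rik was at 4.34 to 6.49 CPM against 33.5 to 39.8 CPM, a log2 ratio of -2.76. Since the pair was chosen for lying below WT in every rd10 group, these values are a description and give no information on the part of sex, which was not tested.

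Among the tests given here, Neat1 was the one member that passed, and it did so between ages of rd10 retina. Its level was 22.7 and 21.7 CPM in WT retina, 12 and 13.2 CPM in rd10 retina at P15, 35.6 and 35.4 CPM at P18, and 33.9 and 32.7 CPM at P21. No group overlapped another. From P15 to P18 it rose 2.82-fold, a log2 fold change of 1.49 ± 0.16 (SE; edgeR adjusted p = 0.00969), and from P15 to P21 it rose 2.64-fold, 1.40 ± 0.16 on the log2 scale (edgeR adjusted p = 0.0175). Of all genes tested, 0.591% and 0.401% were called in these comparisons, either direction, and 1 of 7 members in each. P18 and P21 differed by -0.09 ± 0.15 (edgeR adjusted p = 0.854).

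Against WT the direction of Neat1 turned with age. At P15 it was at 56.8% of the WT mean, with a log2 fold change of -0.82 ± 0.15 and an edgeR adjusted p of 0.0706. At P18 and P21 it was at 160% and 150% of the WT mean, with log2 fold changes of 0.68 ± 0.15 (edgeR adjusted p = 0.0723) and 0.59 ± 0.15 (edgeR adjusted p = 0.164). All 3 were short of the fold required and of the threshold by edgeR, while by DESeq2 the adjusted p was 0.00495 at P15, 0.016 at P18 and 0.0802 at P21. Within a sex, the rd10 libraries with Y-linked counts were at 33.9 to 35.6 CPM at P18 and P21 against 12 to 13.2 CPM at P15, a log2 ratio of 1.46. Those with Xist were at 32.7 to 35.4 CPM against 21.7 to 22.7 CPM in WT retina, a ratio of 0.62.

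The calls of Neat1 depend on the number of libraries. When replicate 1 or 2 of rd10 P15 was left out, the edgeR adjusted p rose to 0.105 and 0.0772 from P15 to P18, and to 0.122 and 0.094 from P15 to P21, while the log2 fold changes stayed between 1.34 and 1.57 in all alternatives. The call from P15 to P21 was also lost without replicate 1 of rd10 P21 (edgeR adjusted p = 0.0783), and that from P15 to P18 when the 4 libraries were fitted alone (0.055). Neat1 is given over its whole length of 20771 bases, on which it was at 1.07 RPKM in WT retina. A short polyadenylated form and a long form without a poly(A) tail are known, and reads of the 2 forms were not separated.

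Other lists moved between the same groups. The 10 genes of reactive Müller glia summed to 269 and 304 CPM in WT retina, to 232 and 234 CPM in rd10 retina at P15, to 1939 and 1820 CPM at P18, and to 1310 and 906 CPM at P21. The 10 microglia genes summed to 72.8 and 83.9 CPM, 108 and 104 CPM, 272 and 281 CPM, and 384 and 201 CPM in the same order. Those of the 8 pigment epithelium genes were 49.7 and 166 CPM, 233 and 271 CPM, 42.0 and 25.5 CPM, and 33.6 and 43.0 CPM. No gene of these 3 lists was at 0 in every library. The part of these cell types in the level of Neat1 was not tested.

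Proteins of the same nuclear bodies were examined as further genes of the pathway. Of the 12 paraspeckle protein genes, 0 were called by edgeR or DESeq2 in any comparison. Their summed level was between 1976 and 2069 CPM in all 8 libraries. In each comparison 0 to 4 of the 12 had an unadjusted edgeR p under 0.05, beside 2219 to 3563 of all 20457 tested genes. SFPQ and NONO are core paraspeckle proteins. Sfpq was at a mean of 273 CPM in WT retina and 292, 288 and 322 CPM in rd10 retina at P15, P18 and P21, and Nono at 209 CPM and 230, 220 and 205 CPM. Hnrnph3, an RNA-binding protein of paraspeckles, was at 101 and 90.5 CPM in WT retina and at 53.3 and 57.2 CPM in rd10 retina at P15, a log2 fold change of -0.79 with an edgeR adjusted p of 0.0547. It stood at 85.9 and 76.6 CPM at P18. Hnrnph3 was named for the smallest p of the 12 at P15 against WT, so its low level there restates that choice. Of the 12, 5 had a log2 fold change above 0 in that comparison and 7 below.

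Malat1 was the most abundant of the 7 RNAs. It was at 797 and 604 CPM in WT retina, and in rd10 retina at 393 and 451 CPM (P15), 461 and 666 CPM (P18), and 565 and 667 CPM (P21). Only the P15 libraries of rd10 retina lay below both WT libraries, with a log2 fold change of -0.73 ± 0.21 (edgeR adjusted p = 0.215). The libraries of P18 and P21 overlapped those of WT, with -0.31 ± 0.21 (edgeR adjusted p = 0.493) and -0.19 ± 0.21 (edgeR adjusted p = 0.83). From P15 to P21 the log2 fold change was 0.54 ± 0.21 (edgeR adjusted p = 0.338). Both nuclear body RNAs of chromosome 19 were thus lower at rd10 P15 than in the other groups, without passing the test against WT.

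Of the 11 nuclear speckle protein genes, 0 were called by edgeR or DESeq2 in any comparison. In each comparison 0 to 4 of the 11 had an unadjusted edgeR p under 0.05, beside 2219 to 3563 of all 20457 tested genes. All 11 had a log2 fold change below 0 at P15 against WT, with a median of -0.21 beside -0.01 over all genes tested. The smallest p at P15 were those of Rbm25 and Srsf5, both splicing regulators, at -0.36 and -0.40 (edgeR adjusted p = 0.282 and 0.291). At P18 the median was -0.06, with 2 genes above 0 and 9 below. The smallest p at P18 was that of Srrm1, at -0.44 (edgeR adjusted p = 0.138). At P21 the median was 0.00, with 6 genes above 0 and 5 below.

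Six3os1 was at 97.8 and 56.6 CPM in WT retina, and in rd10 retina at 182 and 112 CPM (P15), 93.8 and 122 CPM (P18) and 117 and 76.5 CPM (P21). Only the P15 libraries lay above both WT libraries, with a log2 fold change of 0.93 ± 0.35 (edgeR adjusted p = 0.347). P18 and P21 overlapped WT, with 0.49 ± 0.35 (edgeR adjusted p = 0.528) and 0.32 ± 0.35 (edgeR adjusted p = 0.817). Six3, the coding gene on the other strand, was at 112 and 113 CPM in WT retina and at 135 and 128 CPM in rd10 retina at P15, with a log2 fold change of 0.23 (edgeR adjusted p = 0.543). The gene spans overlap by 4791 bases, of which 106 are exonic in both, and their reads in those bases cannot be told apart.

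Miat was at 87.6 and 55.8 CPM in WT retina, and in rd10 retina at 62.1 and 69.3 CPM (P15), 53.5 and 60.1 CPM (P18) and 49.2 and 44.4 CPM (P21). The P21 libraries were the lowest of the 8 and lay below both WT libraries, with a log2 fold change of -0.61 ± 0.21 (edgeR adjusted p = 0.294). At P15 and P18 the libraries overlapped those of WT, with -0.13 ± 0.21 (edgeR adjusted p = 0.877) and -0.34 ± 0.21 (edgeR adjusted p = 0.451). All 3 values lean on WT replicate 1, without which they became -0.24 at P21, 0.24 at P15 and 0.03 at P18. From P15 to P21 of rd10 retina the change was -0.49 ± 0.21 (edgeR adjusted p = 0.379).

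The longest Miat transcript holds TACTAAC 6 times on its own strand in 9163 bases, and the stretch of bases 4853 to 5072 is shown with its 3 copies in capitals, since Miat is known for these repeats.
Miat: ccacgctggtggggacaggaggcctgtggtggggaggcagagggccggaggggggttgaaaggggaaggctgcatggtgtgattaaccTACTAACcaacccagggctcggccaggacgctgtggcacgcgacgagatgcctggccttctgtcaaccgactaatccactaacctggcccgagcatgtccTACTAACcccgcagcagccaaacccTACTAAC
Neat1 holds 1 copy and the other members hold none, and 3.78% of 18930 annotated long noncoding transcripts hold at least 1. Sf1, the branch point binding protein that these letters bind, had a log2 fold change of -0.30 at P15 (edgeR adjusted p = 0.441) and -0.43 at P18 (edgeR adjusted p = 0.178) against WT. Celf3, another RNA-binding protein found with Miat, was at 0.40 at P21 (edgeR adjusted p = 0.287). Of the 4 tested partner genes of the members, 0 were called by edgeR or DESeq2 in any of the 6 comparisons. In each comparison 0 to 2 of the 4 had an unadjusted edgeR p under 0.05, beside 2219 to 3563 of all 20457 tested genes.

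Tug1 was the steadiest of the 7 RNAs. It was at 116 and 118 CPM in WT retina, and in rd10 retina at 103 and 106 CPM (P15), 104 and 109 CPM (P18) and 106 and 121 CPM (P21). Its log2 fold changes against WT were -0.16, -0.13 and -0.04, each with an SE of 0.12 (edgeR adjusted p = 0.669, 0.633 and 0.962), and the last was 0.07 when scaled by library size only. P15 and P18 lay below both WT libraries by a small margin and P21 overlapped them. Tug1 shares 483 exonic bases with Morc2a on the other strand, so reads of that stretch cannot be told apart.

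**Figure D4:**
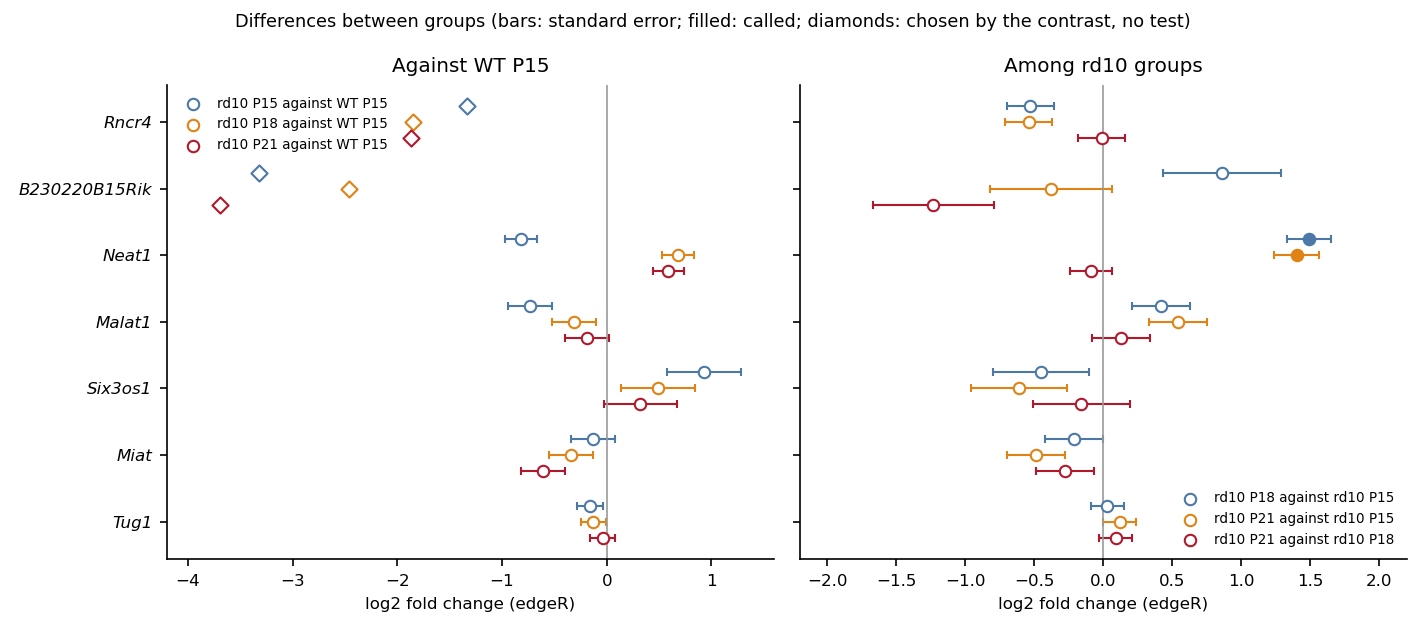
Log2 fold changes of the 7 RNAs from the edgeR fit, against WT P15 (left) and between rd10 groups (right). Bars are standard errors, filled points passed the threshold, and diamonds without a bar mark the pair chosen by those contrasts. Neat1 is the one filled gene, at 1.49 and 1.40, and Tug1 lies within 0.16 of 0 throughout.

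Counted over the members, 0 of the 5 RNAs given a test against WT were called by edgeR or DESeq2 at P15, P18 or P21. An unadjusted edgeR p under 0.05 was reached by 3, 1 and 2 of them, beside 2523, 3563 and 2416 of all 20457 tested genes. Of the 20457 genes, 0.23%, 1.48% and 0.386% were called by edgeR in these comparisons. DESeq2 called 1.43%, 3.22% and 1.94% of the 29411 genes with at least 1 count. Of the 5, 3 lay below both WT libraries at P15 and 1 above, against backgrounds of 24.9% and 24.8% of all genes. At P18 and at P21 it was 1 below and 1 above each time, against 22.9% and 24.1%, and 24.2% and 24.9%. Within rd10 retina, DESeq2 also called 1 of 7 from P15 to P18 and from P15 to P21. There it called 2.04% and 1.79% of the 29411 genes with at least 1 count. From P15 to P18, 3 members lay wholly above and 2 wholly below the P15 libraries, against 21.9% and 20.4% of all genes, and from P15 to P21 these were again 3 and 2, against 26% and 25.5%. Between P18 and P21 0 of 7 were called by edgeR and by DESeq2. There was 1 at an unadjusted edgeR p under 0.05, beside 2219 of all 20457 tested genes. Of these genes edgeR called 0.0196%, and DESeq2 called 0.408% of the 29411 with at least 1 count. In that comparison 0 members lay wholly above and 3 wholly below, against 21% and 22% of all genes.

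Among 34 other long noncoding RNAs known from retina or brain, 31 were in the table and 30 were tested. Against WT 0 were called by edgeR at any age, and DESeq2 called 1, Vax2os at P15. An unadjusted edgeR p under 0.05 was reached by 7, 5 and 2 of the 30, beside 2523, 3563 and 2416 of all 20457 tested genes. The median log2 fold changes of the 30 were -0.13, -0.07 and -0.12, beside -0.01, 0.01 and 0.00 over all genes. Vax2os, opposite to the homeobox gene Vax2 and expressed in photoreceptors, was the one called by edgeR, from P15 to P21 of rd10 retina. It was at 113 and 93.1 CPM in WT retina, and in rd10 retina at 45.2 and 48.5 CPM (P15), 98.5 and 68.8 CPM (P18) and 102 and 127 CPM (P21). The log2 fold change from P15 to P21 was 1.29 ± 0.20 (edgeR adjusted p = 0.0469), and the call was lost in 8 of 15 alternatives, with adjusted p up to 0.268. Otx2os1, beside the photoreceptor regulator Otx2, was at 28.4 and 22.7 CPM in WT retina and 15.8 and 13.9 CPM in rd10 retina at P15, a log2 fold change of -0.78 (edgeR adjusted p = 0.166). Vax2os and Otx2os1 had the 2 smallest p of the list at P15 against WT and were named for it. Their low level in rd10 P15 thus restates that choice. Of the 30, 13 had a log2 fold change above 0 at P15 against WT and 17 below.

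The genes whose levels were most like those of the pair were found by the root mean square difference of centred log2 CPM over the 8 libraries, among 15129 genes with a mean count of at least 50. For Rncr4 they were Stk17b, a serine/threonine kinase, Slc16a6, a member of the monocarboxylate transporter family, Tcp11, Gm11961 and Gm48552, with differences of 0.258 to 0.281 log2 units, where the deviation of Rncr4 itself was 0.772. Slc16a6 was at 210 and 182 CPM in WT retina, and in rd10 retina at 101 and 121 CPM (P15), 68.9 and 79.3 CPM (P18) and 77.9 and 87.5 CPM (P21). Of the members, the one nearest to Rncr4 was Miat, at rank 846.

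B230220B15Rik had no such close match. Its 5 nearest genes were Ppp1r26, AI847159, Gm14508, Pdzph1 and an identifier without a symbol, with differences of 0.820 to 0.886, where its own deviation was 1.53. Rncr4 was at rank 7 for B230220B15Rik, with 0.918, while B230220B15Rik was at rank 11061 for Rncr4 with the same difference. Likeness here describes 8 libraries that share their sex and age differences. Both genes of the pair were chosen for lying below WT in these libraries, so their nearness to each other restates that choice.

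**Figure D5:**
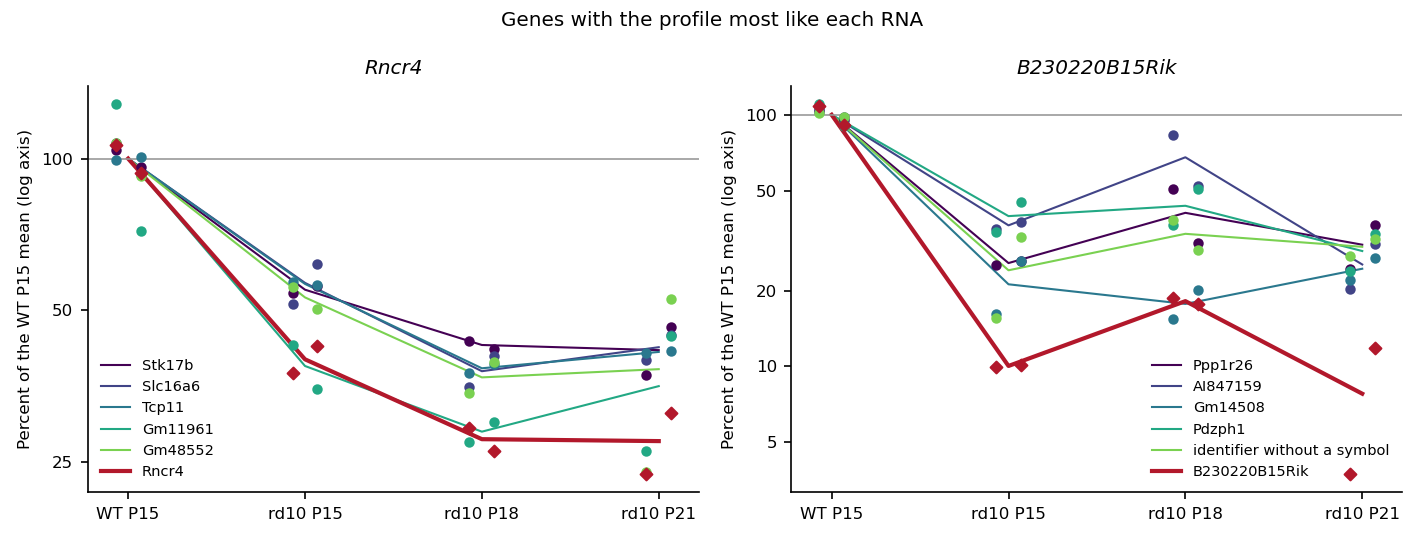
Levels of Rncr4 (left) and B230220B15Rik (right) with the 5 genes of most similar profile, as percent of each gene's WT P15 mean on a log axis. Points are libraries and lines join group means. The genes near Rncr4 follow its course over the groups, for which they were picked. Those near B230220B15Rik stay above it in rd10 P15 and P21.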

How the data were processed

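The authors sequenced polyadenylated RNA of whole retina, in 2 libraries for each of the 4 groups. The deposited table holds raw read counts per Ensembl gene, not normalized. HISAT2 is named in the submitters' processing notes without a version, and no source used here gives the counting tool, the build or the annotation. Symbols and positions came from GENCODE M21 (GRCm38), which names 52029 identifiers, and RefSeq gave promoters and microRNAs. The series' text calls the 2 libraries of a group biological replicates. Sex genes place the 2 libraries of rd10 P18, and those of rd10 P21, in different animals, but for WT and rd10 P15 the labels do not name the animals, so p-values measure the spread between these libraries.

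Tests used R 4.3.3 with edgeR 4.0.16 and limma 3.58.1, in 1 quasi-likelihood fit with robust=TRUE over all 8 libraries, after filterByExpr (minimum count 10, minimum total count 15) and TMM scaling, which leaves 4 residual degrees of freedom. The Benjamini-Hochberg adjustment ran over all 20457 tested genes. A call needed an adjusted p under 0.05 together with a log2 fold change over 1 in size. The SE is the log2 fold change divided by the square root of F. RPKM divide CPM by the union of exons. The script was first tested on simulated data.

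The members and all gene lists were chosen with earlier results of these data known. Named genes are the members, their overlapping and nearest genes, the 5 genes of most similar profile for each of the pair (log2 CPM with prior count 2), and in each list the called genes or those of smallest p; Sfpq, Nono, Six3 and Ndufaf2 levels were added as context. Ratios to the rod list and comparisons within a sex were added after the values were seen. Replicate numbers were checked for pairing: the correlations of same-numbered deviations lay between -0.0245 and 0.0594, so no block was used.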

Additional observations from a re-analysis of the deposited data

How the results depend on the processing

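The number of genes called depends on the tool and the design. DESeq2 called 421, 948 and 571 genes against WT at P15, P18 and P21, where edgeR called 47, 303 and 79. Between rd10 groups it called 600 (P15 to P18), 526 (P15 to P21) and 120 (P18 to P21), where edgeR called 121, 82 and 4. Without the filter on low counts edgeR called 144 at P15 and 160 at P21 against WT, 125 from P15 to P21 and 19 from P18 to P21. With a term for sex the counts were 4, 191 and 36 against WT and 275, 156 and 12 between rd10 groups, and with the 4 libraries compared alone 206, 143 and 129, and 74, 182 and 2. Under library size alone the median over all genes was 0.13 at P18 and 0.11 at P21 against WT, and 319 of 371 and 67 of 91 calls were then higher in rd10 retina, where with TMM they were 235 of 303 and 50 of 79.

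The replicate numbers are not stated to pair the samples, and the low correlations of same-numbered deviations do not exclude pairing. With the replicate number as a block, 16 genes at P15 and 18 at P21 were called against WT. No call of a member given a test changed under the block, and Vax2os lost its call.

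The pair was chosen on the contrasts with WT, so its calls there are not given under any setting. The call of Neat1 from P15 to P18 was lost when the 4 libraries were compared alone. Leaving out 1 library kept the log2 fold change of Neat1 between 1.34 and 1.57 from P15 to P18 and from P15 to P21. Genes called ranged from 6 to 246 at P15, 39 to 1250 at P18 and 4 to 210 at P21 against WT, and from 16 to 977 (P15 to P18), 10 to 217 (P15 to P21) and 3 to 963 (P18 to P21) between rd10 groups. The highest counts came without a P18 library, namely replicate 2 for 1250, 977 and 963 and replicate 1 for 246, 210 and 217. The lowest came without rd10 P15 replicate 1 (6 and 16) or 2 (10), WT replicate 1 (39 and 4), or rd10 P21 replicate 2 (3). The cause was not tested.

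Against WT, where the choice of the pair fixes the direction, the log2 fold changes under the alternatives lay between -2.07 and -1.20 for Rncr4 and between -4.73 and -2.05 for B230220B15Rik. The value of B230220B15Rik at P21 against WT was -4.73 without replicate 2 of that group and -3.08 without replicate 1. Of 645 values for single genes under the alternatives, 608 were labelled the same, 5 moved, 14 lost their call and 18 reversed. All that reversed were differences that were not called. For most genes the same meant the same direction and side of the threshold. For the pair against WT it meant the same direction and a shift under 1 SD within groups. The side of the threshold was not compared there. Against WT, leaving out WT replicate 1 or 2 gave Miat 0.24 or -0.41 at P15 and 0.03 or -0.62 at P18. At P21 against WT, the values with 1 library left out ran from -0.13 to 0.05 for Tug1, with 0.07 by library size only and 0.02 with a term for sex. Those of Six3os1 ran from -0.02 to 0.78, with -0.01 without rd10 P21 replicate 1, and those of Malat1 from -0.37 to 0.04, with 0.00 under the term for sex. From P15 to P18, Tug1 became -0.03 with a term for sex and -0.00 without rd10 P18 replicate 2, with 0.06 without rd10 P18 replicate 1. From P15 to P21, B230220B15Rik was -1.42 without rd10 P21 replicate 2 and 0.24 without replicate 1. From P18 to P21 with 1 library left out, Rncr4 ran from -0.23 to 0.17 (0.06 without P18 replicate 1), Tug1 from -0.00 to 0.18, Six3os1 from -0.50 to 0.11 (0.04 without P18 replicate 2) and Malat1 from -0.11 to 0.42. With 2 libraries a group, changes of the size of 1 SE could not be resolved.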

Other observations

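Among the other long noncoding RNAs, Kcnq1ot1, the antisense RNA of the imprinted Kcnq1 domain, was at 51.9 and 47.4 CPM in WT retina and at 29.5 and 31.5 CPM (P15), 16.3 and 34.0 CPM (P18), and 39.0 and 43.4 CPM (P21) in rd10 retina. Its log2 fold change at P18 against WT was -0.98 ± 0.29 (edgeR adjusted p = 0.141). Meg3, an imprinted RNA of neurons, was at 1429 and 1617 CPM in WT retina and between 1032 and 1690 CPM in rd10 retina. Epb41l4aos was lower at P21 than at P18, at 4.17 and 4.89 CPM against 13.6 and 8.19 CPM, a log2 fold change of -1.27 ± 0.32 (edgeR adjusted p = 0.412). DESeq2 called Ftx, an RNA of the X-inactivation centre, beside Vax2os from P15 to P21 of rd10 retina, a comparison in which the sex of the animals differed between groups.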
